A study of Homo sapiens with 4 samples.

Results

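The p53 network was examined in AC16 cells exposed to doxorubicin, through 33 genes: 3 inhibitors of p53 and 30 genes known as its targets. The list was set by name, with earlier results of these data known. Of the 33 genes, 32 reached a level of 1 CPM in at least 1 library, among 15989 annotated genes that reached it. CPM is a gene's count per 1000000 counts of its library. AC16, labelled a cardiomyocyte line, is an established human line. It arose from a fusion of ventricular cells of the adult heart with fibroblasts transformed by the SV40 virus. The large T antigen of that virus binds and holds p53, which is a possible limit of the line as a model of the p53 response. The viral transcript was not analysed here, and any part of T antigen in the levels below was not tested. RNA was measured in 4 libraries: AC16 cells labelled untreated (0 min) and AC16 cells in 10 nM doxorubicin for 10, 30 or 360 min. Doxorubicin is an anthracycline that slips between DNA bases and traps topoisomerase II on cut DNA. The drug was given in fresh medium without serum, after removal of medium with serum and a rinse. The labels do not state whether the 0 min cells had this change too; if they did not, drug and medium change cannot be told apart in any comparison with 0 min.

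Each time was sampled by 1 library. Differences therefore lack a check against replicates, no p-values are given, and each comparison is between libraries. Levels sum the deposited estimated counts of a gene's annotated transcripts. Ranges in parentheses are 95% exact counting intervals, which leave out variation between cultures and errors in sharing reads among transcripts. The libraries held 55156612 to 56875881 counts, worth about 13789153 to 14218970 read pairs. In bulk RNA, fewer cells with a transcript and less transcript per cell cannot be told apart.

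p53 is a transcription factor that is made and destroyed continuously. MDM2 marks it for destruction, MDM4 blocks its activating region, and PPM1D is a phosphatase that removes the phosphate groups placed on p53 after DNA damage. When the DNA is broken, the kinases ATM and ATR free p53 from this control, and p53 then binds paired half-sites in DNA and activates genes of growth arrest, repair, metabolism and cell death, its own inhibitors among them.

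Matches to the p53 binding consensus can be read in the promoters of several members. They are shown because p53 acts on genes through sites of this form. RefSeq promoter windows of the GRCh38.p14 build, from 250 bases before to 50 bases after a start site, were on hand for 27 members. Each was searched for the 20-base p53 consensus, with both CNNG cores kept and at most 3 mismatches elsewhere; the consensus is its own reverse complement, so a single pass covers both strands. A site was found in 9 of the 44 windows of these members, which belong to 8 members. The sites follow 5′ to 3′ on the gene's strand, with the CNNG cores in capitals.
DDB2, chr11:47214969-47214988, plus strand: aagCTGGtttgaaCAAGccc
AEN, chr15:88621306-88621325, plus strand: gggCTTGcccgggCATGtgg
FAS, chr10:88991309-88991328, plus strand: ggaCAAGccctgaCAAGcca
MDM2, chr12:68808923-68808942, plus strand: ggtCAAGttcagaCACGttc
FDXR, chr17:74872996-74873015, minus strand: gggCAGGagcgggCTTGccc
GDF15, chr19:18386186-18386205, plus strand: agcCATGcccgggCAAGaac
RPS27L, chr15:63157527-63157546, minus strand: ggcCTAGagcagaCAAGccc
SESN1, chr6:109009018-109009037, minus strand: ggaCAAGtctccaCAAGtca
The DDB2 site has 1 mismatch, those of AEN, FAS and MDM2 have 2, and the others have 3. The MDM2 site lies in the introns of 7 of its annotated transcripts and in an exon of 0. Over all 35116 windows of this length, 1.12% hold such a site at up to 3 mismatches and 0.285% at up to 2. A match describes the letters of the window and does not show that p53 was bound there.

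Few members moved by much. A gene was called higher or lower when its 2 libraries differed at least 2-fold, the larger level was 5 CPM or above, and the counting interval left out a ratio of 1. Of the members, 31 reached 5 CPM. At 10 min against 0 min only GDF15 was called higher and no member was called lower, where 7.69% of all 11892 genes at that level were called higher and 6.85% lower. At 30 min GDF15 and GADD45A were called higher and MDM4 lower, where 3.55% of all genes were called higher and 3.25% lower. At 360 min no member was called in either direction, where 3.26% of all genes were called higher and 3.34% lower. Between 30 and 360 min MDM4 was called higher and GDF15 lower, where 3.26% and 3.49% of all genes were called. Counts of 0 to 2 among 31 members are near these shares of all genes.

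At a 1.5-fold threshold more members were called. At 10 min 6 were called higher (GDF15, GADD45A, ZMAT3, PLK3, CCNG1 and CYFIP2) and 4 lower (PPM1D, SESN2, TP53I3 and AEN), where 16.5% of all genes were called higher and 17.0% lower. At 30 min 5 were called higher (GDF15, GADD45A, PLK2, PLK3 and PHLDA3) and 2 lower (MDM4 and CYFIP2), where the shares of all genes were 8.26% and 7.66%. At 360 min PHLDA3 was called higher and no member lower, where the shares were 6.72% and 6.99%. CYFIP2 counts here by its annotated transcripts; over its whole locus its 30 min ratio was 1.30 and its 360 against 30 min ratio 0.734, the opposite directions. From 30 to 360 min 2 members were called higher (MDM4 and CYFIP2) and 3 lower (GDF15, GADD45A and FAS), where the shares were 7.59% and 7.95%.

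Below 2-fold, more of the members lay above the 0 min library at the early times. Their ratio to 0 min was above 1 in 22 of 32 genes at 10 min, in 22 at 30 min and in 15 at 360 min. The median log2 ratio of the members was 0.15 at 10 min, 0.11 at 30 min and -0.02 at 360 min, beside 0.02, -0.01 and -0.0015 for all genes with 1 CPM. From 30 to 360 min 24 of the 32 ratios were below 1, with a median of -0.15, beside 0.0007 for all genes with 1 CPM. Shares of all genes with ratios above or below 1 were not counted. The summed level of the members was 1738 CPM at 0 min, 1922 at 10 min, 2134 at 30 min and 1825 at 360 min. The highest library was that of 10 min for 14 members, of 30 min for 12, of 0 min for 4 and of 360 min for 2. The same count over all genes was not made, so these numbers are not read as a trait of the members. All comparisons with 0 min share that 1 library.

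**Figure D1:**
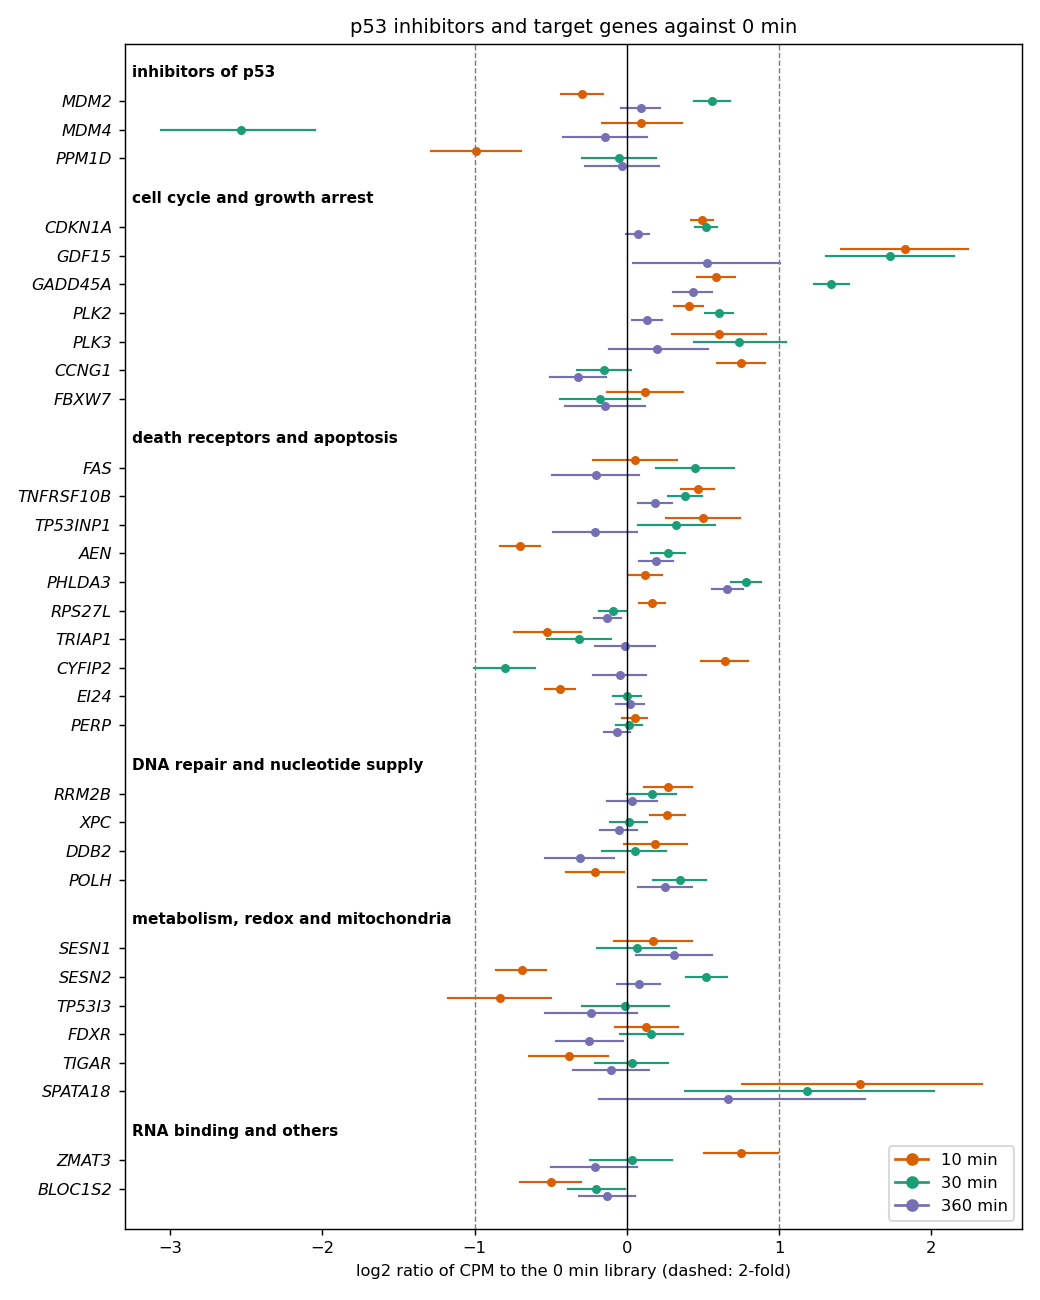
Log2 ratio of CPM to the 0 min library (x axis) for the 32 measured members by role (y axis), at 10 min (orange), 30 min (green) and 360 min (purple). Points are ratios and bars are 95% counting intervals from 1 library per time; dashed lines mark 2-fold. GDF15 and SPATA18 lie farthest to the right, and MDM4 at 30 min lies farthest to the left.

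The 3 inhibitors of p53 moved apart. MDM2, the ubiquitin ligase that is itself a target of p53, stood at 68.1 CPM at 0 min, 55.7 at 10 min, 100.4 at 30 min and 72.6 at 360 min. Its ratio to 0 min was 0.817 (0.743 to 0.899) at 10 min and 1.47 (1.36 to 1.60) at 30 min, and the 30 min library was 1.80 times the 10 min library (1.65 to 1.97). At 360 min the ratio was 1.07 with an interval that held 1 (0.975 to 1.17). The gene has a constitutive promoter and, in its first intron, a promoter that answers to p53. The site printed above lies in that intron. Transcripts that start before that intron held 87.9%, 82.9%, 86.4% and 86.9% of the gene's counts at 0, 10, 30 and 360 min. Those that start just after the site, from 68809002 on, held 11.2%, 15.3%, 12.8% and 11.3%. Their level was 7.65, 8.49, 12.8 and 8.19 CPM, with ratios of 1.11 (0.846 to 1.45), 1.67 (1.31 to 2.14) and 1.07 (0.814 to 1.40). At 30 min they and the gene as a whole stood higher by similar ratios, and the intervals of their shares overlapped in all 4 libraries. The locus of MDM2 could not be named, so any counts in assembled models there are unknown.

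MDM4, the partner of MDM2 that lacks strong ligase activity of its own, stood at 16.8 CPM at 0 min, 18.0 at 10 min, 2.89 at 30 min and 15.2 at 360 min. The 30 min library was the low one, 5.80-fold below 0 min (4.14 to 8.33), and the 360 min library was 5.25-fold above it (3.74 to 7.58). At 30 min the gene had 160 counts, worth about 4 to a read pair. The counts that were missing belonged to the long coding transcripts: MDM4-203, of 10073 bases, went from 13.2 and 13.3 CPM at 0 and 10 min to 0.814 at 30 min and 10.6 at 360 min. At 30 min the leading model was MDM4-210, a short noncoding transcript of 909 bases, at 1.16 CPM. Scaled by transcript length, which weights short models more, the gene stood at 2.30, 3.52, 2.74 and 2.55 CPM per kilobase at 0, 10, 30 and 360 min and showed no such dip. No assembled model at the locus took up counts in any library.

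PPM1D, also called WIP1, stood at 20.6 CPM at 0 min, 10.3 at 10 min, 19.9 at 30 min and 20.1 at 360 min. Only the 10 min library was low, at 0.503 times 0 min (0.410 to 0.618), just short of the 2-fold threshold. A single transcript, PPM1D-201, held at least 98.4% of its counts throughout.

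The genes of growth arrest stood highest as a group at 10 and 30 min. All 7 had a ratio above 1 at 10 min, 5 of 7 at 30 min and 5 of 7 at 360 min. Their median log2 ratios were 0.59, 0.61 and 0.13, beside 0.02, -0.01 and -0.0015 for all genes with 1 CPM. GDF15, a secreted stress cytokine of the TGF-beta family, had 4.47, 15.8, 14.8 and 6.44 CPM at 0, 10, 30 and 360 min. It rose 3.54-fold at 10 min (2.65 to 4.72) and 3.32-fold at 30 min (2.48 to 4.43), and the 360 min library was 2.30-fold below that of 30 min (1.78 to 2.98). At 360 min it was still 1.44 times 0 min (1.03 to 2.01). GADD45A, which binds PCNA and p21 and takes part in repair and arrest, had 61.0, 91.6, 155 and 82.3 CPM. It rose 2.54-fold at 30 min (2.34 to 2.75), against ratios of 1.503 (1.38 to 1.64) at 10 min and 1.35 (1.23 to 1.48) at 360 min. Its peak thus came at 30 min, whereas GDF15 was about level at 10 and 30 min (ratio 0.937, 0.771 to 1.14).

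CDKN1A encodes p21, the inhibitor of cyclin-dependent kinases that p53 uses to stop the cell cycle. It had 191 CPM at 0 min, 269 at 10 min, 274 at 30 min and 201 at 360 min, with ratios of 1.41 (1.34 to 1.48), 1.44 (1.37 to 1.51) and 1.05 (0.997 to 1.11). The polo-like kinases PLK2 and PLK3, both induced by stress, had the same order of libraries. PLK2 had 111, 147, 169 and 121 CPM, with a ratio of 1.52 at 30 min (1.43 to 1.62). PLK3 had 10.6, 16.1, 17.6 and 12.1 CPM, with a ratio of 1.67 at 30 min (1.36 to 2.07). Its coding transcript PLK3-201 had 2.06, 5.95, 8.79 and 6.38 CPM and led in every library except that of 0 min. In the totals of all 3 genes the 30 min library was highest and 360 min lay within 1.15 times 0 min. PLK3-201 alone had a log2 ratio to 0 min of 1.63 at 360 min.

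CCNG1, cyclin G1, which recruits a phosphatase to MDM2, differed from these. It had 38.6, 64.8, 34.8 and 30.9 CPM and was high in the 10 min library alone, at 1.68 times 0 min (1.51 to 1.87), and below 0 min at 360 min (0.802, 0.705 to 0.911). Much of the 10 min excess was assigned to the short transcript CCNG1-208, at 0, 19.1, 3.78 and 4.32 CPM. FBXW7, a substrate adaptor of the SCF ligase that marks cyclin E for destruction, had 18.3, 19.9, 16.3 and 16.6 CPM, and its 3 ratios to 0 min all had intervals that held 1.

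Among receptors and effectors of cell death, 10 of 11 members were measured and none was called at any time. Over all genes, 3.25% to 7.69% were called in each direction, and 0 calls among 10 genes is near these shares. TNFRSF10A, the gene of the TRAIL receptor DR4, had 0 counts in all 4 libraries, which allows up to 0.211 to 0.218 CPM. TNFRSF10B, the gene of the other TRAIL receptor DR5, had 85.2, 118, 111 and 97.1 CPM, with ratios of 1.38 (1.28 to 1.49), 1.30 (1.21 to 1.41) and 1.14 (1.05 to 1.23). FAS, the receptor of Fas ligand, had 15.5, 16.1, 21.2 and 13.5 CPM, with a ratio of 1.37 at 30 min (1.14 to 1.63) and a 360 min library 1.57-fold below that of 30 min (1.30 to 1.90). Only TNFRSF10B of the 3 receptors had an interval above 1 at every time.

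PHLDA3, which competes with AKT for the membrane and so lowers survival signalling, was the member with the largest ratio at 360 min among those with 5 CPM. It had 92.2 CPM at 0 min, 100.4 at 10 min, 159 at 30 min and 146 at 360 min. The ratios were 1.09 (1.01 to 1.17), 1.72 (1.61 to 1.84) and 1.58 (1.47 to 1.695), so that the 30 and 360 min libraries were both high. Of its exon bases, 19.1% are shared on the same strand with the noncoding gene AC096677.2, which had at most 0.236 CPM. AEN, a nuclease that acts in apoptosis, had 87.6, 53.9, 106 and 99.97 CPM: it was low at 10 min (0.615, 0.561 to 0.674) and 1.96 times higher at 30 than at 10 min (1.80 to 2.15). TP53INP1, a stress protein of autophagy and p53 phosphorylation, had 17.02, 24.1, 21.3 and 14.7 CPM, with a ratio of 1.41 at 10 min (1.19 to 1.67).

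PERP, a membrane protein of cell junctions, lay between 159 and 172 CPM, and its intervals against 0 min held 1 at all 3 times. RPS27L, a ribosomal protein relative that binds MDM2, had 153, 172, 144 and 140 CPM. EI24, a protein of the endoplasmic reticulum, had 137, 101, 137 and 139 CPM, and TRIAP1, an inhibitor of apoptosome assembly that carries lipid in mitochondria, had 30.3, 21.1, 24.3 and 30.0 CPM. Both were lowest in the 10 min library, with ratios of 0.738 (0.689 to 0.791) and 0.696 (0.599 to 0.811).

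CYFIP2, a subunit of the WAVE actin regulator, depended on which transcripts were summed. Its annotated transcripts had 40.1, 62.7, 23.0 and 38.9 CPM, so that 30 min was the low library at 0.574 times 0 min (0.498 to 0.658). Its whole locus, with models assembled from these libraries, had 40.9, 78.0, 53.04 and 38.9 CPM, and 30 min then lay above 0 min at 1.30 times (1.16 to 1.45). Assembled models held 1.81%, 19.6%, 56.6% and 0.0932% of the locus at 0, 10, 30 and 360 min. The 10 min library was the highest either way.

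The DNA repair members had the narrowest range of ratios among the roles: their log2 ratios to 0 min lay between -0.31 and 0.35. XPC and DDB2, which recognise distorted DNA for nucleotide excision repair, had 80.8, 97.1, 81.5 and 77.9 CPM and 26.2, 29.9, 27.2 and 21.2 CPM. XPC was highest at 10 min with a ratio of 1.201 (1.11 to 1.30), and DDB2, whose promoter holds the closest match to the consensus, was lowest at 360 min with a ratio of 0.808 (0.690 to 0.943). The main full-length coding transcript of DDB2, DDB2-201, had 4.34, 0.989, 0.597 and 2.39 CPM, and the gene's leading transcript, DDB2-203, is annotated for nonsense-mediated decay. The gene total had ratios of 1.14 (0.987 to 1.31) at 10 min and 1.04 (0.894 to 1.197) at 30 min, with intervals that held 1, while DDB2-201 was low in both libraries. Of the exon bases of XPC, 23.8% lie opposite the antisense gene AC093495.1 and 6.63% opposite LSM3, and reads of both strands may be mixed. RRM2B, the ribonucleotide reductase subunit that p53 induces, had 43.7, 52.7, 48.9 and 44.7 CPM, with a ratio of 1.21 at 10 min (1.08 to 1.35). POLH, a polymerase that copies past damaged bases, had 34.7, 30.0, 44.1 and 41.3 CPM, with ratios of 0.865 (0.758 to 0.988), 1.27 (1.13 to 1.44) and 1.19 (1.05 to 1.35).

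Of the 6 genes of metabolism and mitochondria none was called, which is near the shares of 3.25% to 7.69% over all genes. SESN2, a sestrin that senses leucine and restrains mTORC1, had 56.0 CPM at 0 min, 34.7 at 10 min, 80.5 at 30 min and 59.1 at 360 min. It was low at 10 min (0.620, 0.551 to 0.694) and high at 30 min (1.44, 1.31 to 1.58), a 2.32-fold step between these 2 libraries (2.09 to 2.59). The related SESN1 had 17.1, 19.3, 17.9 and 21.2 CPM and was 1.24 times 0 min at 360 min (1.04 to 1.48), its highest library. TP53I3, a quinone oxidoreductase, had 14.5, 8.15, 14.4 and 12.3 CPM, with a ratio of 0.562 at 10 min (0.442 to 0.709). TIGAR, a phosphatase that turns glucose use away from glycolysis, had 19.96, 15.3, 20.4 and 18.6 CPM; 42.6% of its exon bases belong also to AC008012.1 on the same strand, and its values are uncertain for that reason. FDXR, which passes electrons to mitochondrial P450 enzymes, had 26.6, 29.1, 29.8 and 22.4 CPM, with a ratio of 0.842 at 360 min (0.723 to 0.982).

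SPATA18, a mitochondrial quality factor also called MIEAP, was the rarest measured member. It had 1.41, 4.06, 3.20 and 2.23 CPM, below the 5 CPM that a call needs, and its ratios were 2.89 (1.69 to 5.04), 2.28 (1.31 to 4.05) and 1.59 (0.882 to 2.96). The RNA-binding protein ZMAT3 had 16.1, 27.2, 16.5 and 14.0 CPM, high at 10 min alone (1.68, 1.42 to 1.99). Assembled models held 54.0% to 56.7% of its locus, and over the whole locus the 10 min ratio was 1.59 (1.42 to 1.77). BLOC1S2, a subunit of complexes of lysosome traffic, had 36.4, 25.7, 31.7 and 33.3 CPM, with a ratio of 0.707 at 10 min (0.616 to 0.811).

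**Figure D2:**
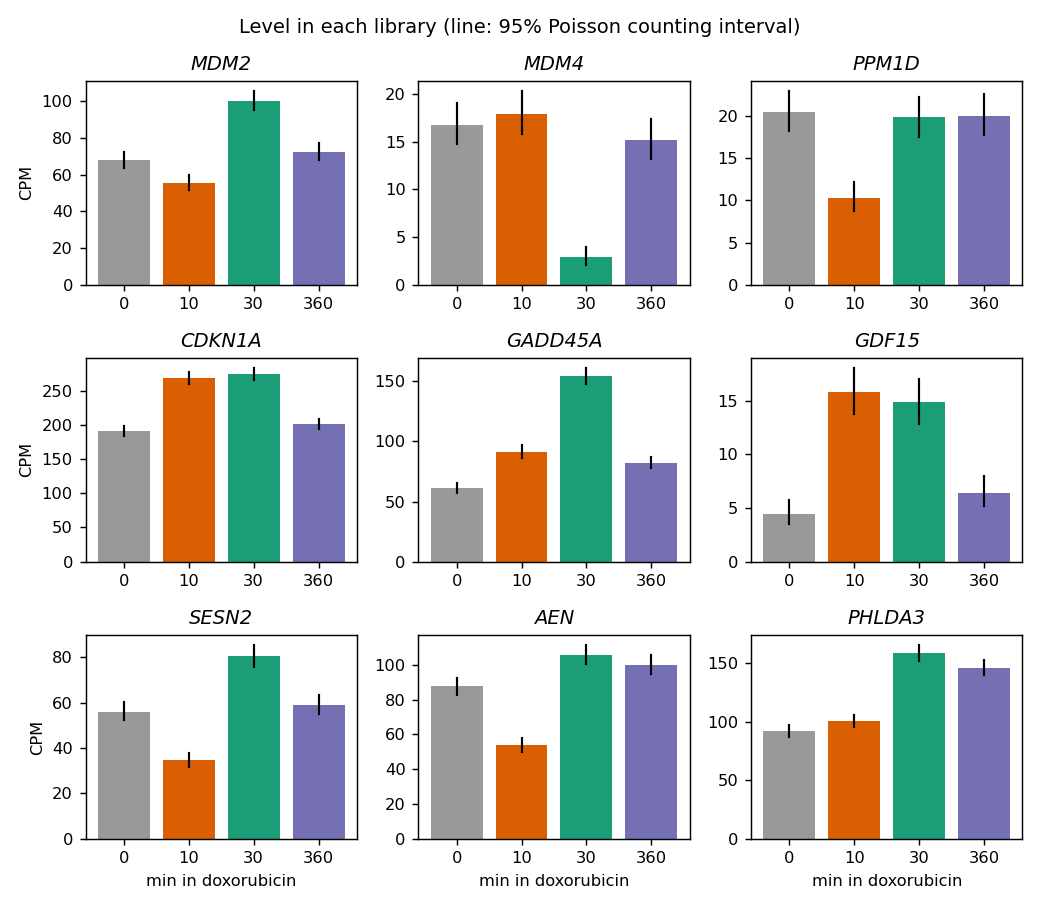
Level in CPM (y axis, from 0) of 9 members in each library (x axis, min in doxorubicin). Bars are single libraries and black lines are 95% Poisson counting intervals. MDM4 is low at 30 min alone (2.89 CPM) and PPM1D at 10 min alone (10.3 CPM), GDF15 is high at 10 and 30 min, and PHLDA3 is high at 30 and 360 min.

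Levels can be compared between genes only after division by transcript length. On that scale CDKN1A was the most abundant member at 0 min, at 90.1 CPM per kilobase, and remained so at 10 min (125), 30 min (131) and 360 min (93.0). EI24 (82.0), PLK2 (50.7) and GADD45A (44.0) followed at 0 min. MDM2 stood at 15.8 and MDM4 at 2.30 CPM per kilobase, and SPATA18 was last at 0.569.

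The total of CDKN1A hid a larger difference within the gene. Its annotated transcripts start at 2 places on chromosome 6: 3 of them, led by the coding CDKN1A-208 and CDKN1A-204, start from 36676460 on, 2198 bases before the first of the 5 others. The upstream transcripts had 3.32 CPM at 0 min, 98.2 at 10 min, 133 at 30 min and 40.6 at 360 min. That is 1.74% of the gene's counts at 0 min (1.27% to 2.30%), 36.6% at 10 min (34.99% to 38.1%), 48.4% at 30 min (46.8% to 50.03%) and 20.2% at 360 min (18.7% to 21.8%). They were 29.5 times 0 min at 10 min (22.2 to 40.6), 40.0 times at 30 min (30.1 to 54.9) and 12.2 times at 360 min (9.11 to 16.9). The transcripts from the main start had 188, 170, 141 and 160 CPM, with ratios of 0.908 (0.859 to 0.960), 0.754 (0.711 to 0.800) and 0.854 (0.806 to 0.903). The whole excess of the gene over 0 min was therefore assigned to the upstream starts, and all 3 treated libraries lay above 0 min there. The model that carried it changed: CDKN1A-208 at 10 and 360 min (98.0 and 40.6 CPM), and at 30 min CDKN1A-204 (96.6 CPM), which was at 0 in the other 3 libraries, together with CDKN1A-208 (36.3 CPM). Of the exon bases of CDKN1A, 4.79% lie opposite the noncoding gene DINOL. Upstream and main transcripts share most of their sequence, so these shares rest on how the counting divided reads, an error outside the intervals.

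The lead changed in other members too. In 23 of the 32 members the same transcript led in all 4 libraries, and in 9, or 28.1%, the lead changed, beside 32.6% of the 15989 genes measured. Some changes were all-or-none swaps between near-equal models. TP53INP1-202, of 5631 bases, held 22.3% of its gene at 0 min, 98.1% at 10 min, 64.5% at 30 min and 0.985% at 360 min, the rest lying in TP53INP1-201, of 5638 bases. EI24-212 had 64.2, 45.6, 0 and 66.6 CPM while EI24-211 had 0.545, 1.10, 66.2 and 1.14, with the total of the gene unmoved at 30 min. In FBXW7 the transcripts from the farthest start, led by FBXW7-202, held 48.9%, 39.8%, 58.1% and 26.4% of the gene. Those from a start 183092 bases downstream, led by FBXW7-201, held 36.8%, 40.5%, 28.4% and 59.4%, so that the order of the 2 starts at 360 min was the opposite of that at 0 min. In FAS the coding transcript FAS-204 held 61.7%, 95.8%, 80.0% and 42.0%, and FAS-217, annotated for nonsense-mediated decay, had 0.440, 0.378, 0.452 and 4.15 CPM. By contrast the leading transcript of GDF15 held 92.5% to 98.9% of its gene and that of PHLDA3 95.5% to 98.8%.

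**Figure D3:**
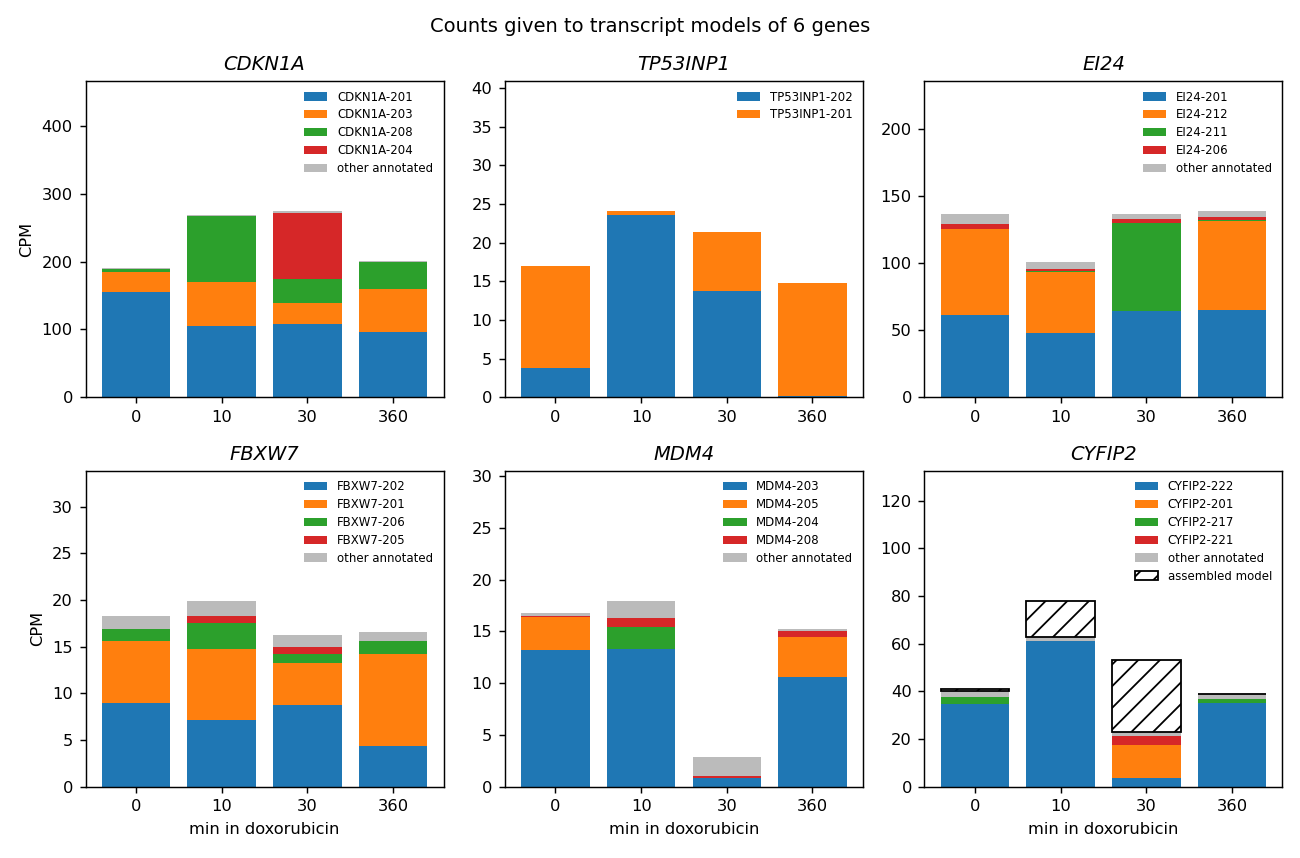
CPM (y axis) given to the leading annotated transcript models of 6 members in each library (x axis, min in doxorubicin); grey is all other annotated models and hatched is assembled models. In CDKN1A the upstream models CDKN1A-208 and CDKN1A-204 are near absent at 0 min, and in EI24 1 model replaces another at 30 min while the total stays at 137 CPM.

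Other genes of the pathway, from lists set by name with earlier results of these data known, were counted by the same rule. Their levels sum annotated transcripts alone. Assembled models at their loci were not examined, so folds of single genes could differ over the whole locus, as in CYFIP2. Of 66 measured further targets of p53, 6 were called higher and 6 lower at 10 min, 2 and 3 at 30 min, and 3 and 2 at 360 min, with median log2 ratios of 0.17, 0.02 and 0.04. These counts are near the shares of all genes given above. PTP4A1, a phosphatase, had 17.7, 1.46, 4.29 and 0.907 CPM and fell 12.1-fold (7.81 to 20.5), 4.13-fold (3.12 to 5.61) and 19.5-fold (11.5 to 39.9). STEAP3, a metal reductase of endosomes, had 20.1, 49.3, 33.8 and 85.5 CPM and rose 4.25-fold at 360 min (3.74 to 4.86). DRAM1, which links p53 to autophagy, had 10.9, 34.2, 10.7 and 33.2 CPM and rose 3.05-fold at 360 min (2.53 to 3.68). LIF, a cytokine, had 0.176, 1.08, 6.01 and 0.671 CPM and was called higher at 30 min alone. PTP4A1 was low in all 3 treated libraries, and DRAM1 was high in 2 of them and level with 0 min in that of 30 min.

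The regulators of p53 were mostly below the 2-fold threshold. Over all genes at 5 CPM, 7.69% were called higher and 6.85% lower at 10 min. The shares were 3.55% and 3.25% at 30 min, and 3.26% and 3.34% at 360 min. Calls of 1 gene in lists of 10 to 22 are near these shares. Of 10 upstream kinases and sensors, MAPK14 (p38) was called higher at 10 min (2.04-fold, 1.85 to 2.25) and none was called later. Its levels were 43.2, 88.2, 24.4 and 25.1 CPM, with ratios under 1 at 30 min (0.566, 0.495 to 0.648) and at 360 min (0.582, 0.509 to 0.666). Of 13 ubiquitin ligases and deubiquitinases, DTL was called lower at 10 min (3.02-fold, 2.64 to 3.48). Of 22 cofactors and modifiers, 20 had a ratio below 1 at 10 min. Their median log2 ratio was -0.29, beside 0.02 for all genes with 1 CPM. PPP1R13L, the gene of iASPP, an inhibitor of p53, had 18.2, 8.63, 70.1 and 21.7 CPM: it fell 2.10-fold at 10 min (1.69 to 2.63) and rose 3.86-fold at 30 min (3.36 to 4.45). Of 10 ribosomal and nucleolar proteins that bind MDM2, NCL (nucleolin) was called lower at 10 min, with 869, 421, 757 and 931 CPM. Of 15 measured relatives of p53 and of the members, CDKN1C was called higher and PLK1 and PHLDA2 lower at 10 min, and TP53INP2 was called higher at 30 and 360 min, with 2.09, 2.68, 7.89 and 9.36 CPM.

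The cell cycle genes that p21 is known to hold down, through the DREAM repressor complex, formed the list that stood farthest from 0 at 10 min. At 10 min 19 of 26 were called lower and none higher, where 6.85% of all genes at 5 CPM were called lower and 7.69% higher. All 26 had a ratio below 1, with a median log2 ratio of -1.14, beside 0.02 for all genes with 1 CPM. Against 0 min, 14.5% of all genes were called in either direction at 10 min, 6.80% at 30 min and 6.59% at 360 min. CDK1, the mitotic kinase, had 73.0, 17.9, 79.3 and 84.2 CPM, and RRM2, the S-phase subunit of ribonucleotide reductase, had 164, 46.1, 195 and 130. At 30 min none of the 26 was called in either direction and the median was 0.12. At 360 min none was called and the median was 0.15. CDKN1A itself was as high at 30 min as at 10 min (ratio 1.02, 0.976 to 1.07). The list was low in the 10 min library alone, and a part of CDKN1A in this was not tested.

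**Figure D4:**
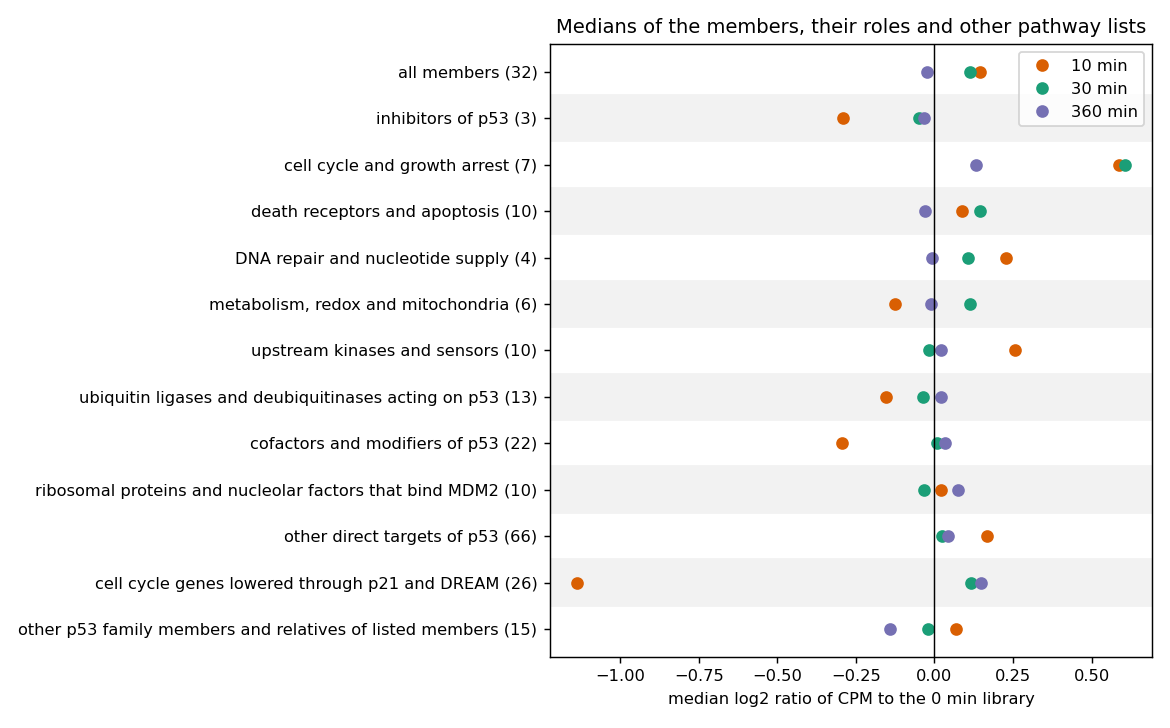
Median log2 ratio of CPM to the 0 min library (x axis) for all members, for 5 of their roles and for 7 other lists of the pathway (y axis, with the number of measured genes), at 10 min (orange), 30 min (green) and 360 min (purple), 1 library per time. The cell cycle list lowered through p21 and DREAM is at -1.14 at 10 min, and the growth arrest members are at 0.59 and 0.61 at 10 and 30 min.

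The 10 min library stood apart from the other 3 over all genes. By the 2-fold rule 14.5%, 14.4% and 17.1% of genes were called in either direction against 0, 30 and 360 min, where 6.59% to 6.80% were called between pairs of the other 3. It also held 29129 loci with counts where the others held 27314 to 27461. Against the 360 min library in place of 0 min, 2 members in place of 1 were called higher at 10 min. Markers of other cells were counted beside these values, and their part in the results was not tested. The summed level of all 12 cardiomyocyte markers, 6 of them measured at 1 CPM, was 97.8 to 199 CPM, lowest at 0 min and highest at 30 min. That of all 11 fibroblast and matrix markers, 6 of them measured, was 6851 to 10239 CPM, highest at 10 min, with LUM and DCN at 0. The endothelial list had 4.54 to 11.4 CPM (1 of 5 measured, KDR at 0) and the immune list 29.8 to 57.6 CPM (2 of 5, CD14 at 0), both highest at 10 min. The epithelial list had 465 to 517 CPM (2 of 5).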

How the data were processed

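The authors deposited estimated counts per locus and per transcript model, neither scaled nor divided by length, for poly(A) RNA of 4 AC16 libraries, 1 for each time. HISAT2 and DESeq2 were run on the GRCh38 assembly, per the submitters' processing notes, which name no version. Not given in the sources used here are how reads were counted, with which annotation, and whether strand was used. Transcript models assembled from the libraries, known by their identifiers, hold 11.1% of counts.

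The annotated transcripts of each gene in GENCODE 29 were summed and scaled to CPM by library totals; 197268 of 215876 annotated transcripts matched that release. A read pair was taken as worth 4 deposited counts, since 32.1% of 7012 low values are multiples of 4 where an even spread would give 25%. There were also 893 values at 2, beside 489 at 1, 602 at 3 and 1000 at 4, so the worth is not settled; at 2 counts a pair the intervals would be narrower. Intervals and floors (3 read pairs for a library at 0) cover counting error only. Ratios of 2 libraries carry 95% exact (Clopper-Pearson, conditional binomial) intervals, and transcript shares exact binomial ones, from SciPy 1.17.1. With 1 library per time, no edgeR or DESeq2 test was run and no p-value computed. Transcripts were grouped by starts within 500 bases, and a locus was named by a gene when its counts matched the gene's.

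The members, their roles, the other lists and the alternatives were chosen with earlier results of these data known. Every measured member is named; of each other list, at most 3 genes past the size rule (2-fold, 5 CPM, interval without 1) with the largest log2 ratios in a comparison. The 30 against 10 min ratios and 2 other baselines were added after the data were seen. Alternatives were TMM factors from edgeR 4.0.16 and median-of-ratios factors from DESeq2 1.42.0 (R 4.3.3), other thresholds, transcripts and loci. Figures were drawn with matplotlib 3.10.9, and tables handled with pandas 2.3.3 and numpy 2.4.6 in Python 3.11.15.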

Additional observations from a re-analysis of the deposited data

Results flagged for a closer look

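Transcript models that were assembled from these libraries, and that the levels of the members leave out, were past the 2-fold rule in some treated libraries at 2 loci. At the CYFIP2 locus they had 0.739 CPM at 0 min, 15.31 at 10 min, 30.01 at 30 min and 0.0363 at 360 min, with the 10 and 30 min ratios at 20.7 (11.6 to 46.1) and 40.6 (23.0 to 89.7). At the FDXR locus they had 1.05 CPM at 0 min, 6.367 at 10 min, 2.08 at 30 min and 2.79 at 360 min, with a 10 min ratio of 6.04 (3.45 to 11.2). Those at the FBXW7 locus had 1.11, 2.05, 3.08 and 3.95 CPM, under the 5 CPM that the rule asks for. Each was looked at again because the signal lies outside the annotated transcripts and above its level in the untreated library. The intervals are 95% counting intervals from 1 library per time. How many loci of all genes have assembled models past this rule was not counted, so 2 member loci cannot be called unusual.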

How the results depend on the processing

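With 1 library at each time, no library could be left out. No paired analysis was possible because each time has a single library. TMM factors, a minimum of 10 CPM, intervals on undivided counts and whole loci left every count of called members within 1.5 times. Whole loci covered 31 members, without MDM2, whose locus could not be named. The members' median log2 ratio ranged over all alternatives from 0.13 to 0.25 at 10 min, 0.03 to 0.16 at 30 min, -0.14 to -0.01 at 360 min and -0.15 to -0.13 from 30 to 360 min. The value of 0.25 came from the 360 min baseline, 0.03 from the 10 min baseline and -0.14 from the median of the other 3 libraries as baseline. Main counts were 1 higher and 0 lower at 10 min, 2 and 1 at 30 min, 0 and 0 at 360 min, and 1 and 1 from 30 to 360 min. Other alternatives moved these counts. Median-of-ratios factors gave 1 lower at 10 min (PPM1D), and no minimum level gave 2 higher at 10 min and 3 higher at 30 min. The leading annotated transcript in place of the gene gave 3 higher and 2 lower at 10 min, 4 and 3 at 30 min, 1 and 2 at 360 min, and 2 and 3 from 30 to 360 min. Coding transcripts alone gave 2 higher and 2 lower at 10 min, and 3 higher and 2 lower at 30 min. They gave 1 higher at 360 min, and 1 higher and 2 lower from 30 to 360 min. A 1.5-fold threshold gave 6 and 4, 5 and 2, 1 and 0, and 2 and 3. Against the 360 min library, 2 were higher at 10 min, and against the 10 min library, 1 was higher and 2 lower at 30 min. For single genes, log2 ratios reversed in DDB2 with coding transcripts (-1.19 at 10 min and -1.93 at 30 min, against 0.19 and 0.05) and in FDXR with its leading transcript (-1.07 at 30 min, against 0.16). PLK3 passed 2-fold with coding transcripts, with log2 ratios of 1.53, 2.10 and 1.63 at 10, 30 and 360 min. Its gene total had 0.60, 0.74 and 0.20. These alternatives drop transcripts by construction. CYFIP2, called at 1.5-fold but not at 2-fold in its gene total, turned direction over its whole locus, with ratios of 1.30 (1.16 to 1.45) at 30 min and 0.734 (0.654 to 0.820) from 30 to 360 min. Depth limits GDF15, MDM4 at 30 min and SPATA18 most, whose intervals are the widest.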
